A study of Mus musculus with 12 samples.

Results

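Cytochrome P450 genes were followed in non-tumoral livers and liver tumors of mice that express Tert, active or catalytically inactive, from the Cdkn1a (p21) promoter. Members were all gene symbols made of Cyp, a family number, a subfamily letter, and a member number, with a mean of at least 1 CPM (reads counted per 1000000 reads of the library) over the 12 libraries. Of 24421 symbols counted, 94 had such a name and 67 reached that level. They comprised 3 genes of family Cyp1, 36 of Cyp2, 5 of Cyp3, 12 of Cyp4, and 11 of the remaining families. Cyp4a12a, Cyp4a12b, Cyp3a41a, Cyp3a41b, and Cyp51 are P450 genes whose symbols do not have this form, so they are no members, although some stand in the functional lists below.

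Cytochromes P450 are heme enzymes that insert an oxygen atom into their substrates with electrons from NADPH, which the reductase Por delivers to the microsomal forms and adrenodoxin to the mitochondrial forms. Most enzymes of families Cyp1 to Cyp3 oxidize drugs and other foreign compounds, those of Cyp4 hydroxylate fatty acids, and those of the higher families act on bile acid precursors, steroids, retinoic acid, and vitamin D. Hepatocytes are the main site of their expression. In the normal lobule β-catenin signaling keeps a pericentral set that includes Cyp2e1 and Cyp1a2 active around the central vein, whereas Cyp2f2 marks periportal hepatocytes, and growth hormone pulses set male- and female-biased forms.

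Poly(A) RNA came from 6 tumors and from non-tumoral liver of each of these 6 mice, which were aged, male by their Y-linked reads, and ate a standard diet. In the 4 p21+/Tert mice, whose tumors carry the prefix T, the transgene is Tert, and in the 2 p21+/TertCi mice, with the prefix TCi, it is a catalytically inactive Tert. Both are expressed from the Cdkn1a promoter, so the transgene is present in every library and its activity follows that promoter. No wild-type liver was analysed here. By the mutations that the study lists, T-HCC662 and T-HCC663 carry Ctnnb1 mutations (Ctnnb1 encodes β-catenin), T-HCC941 carries an Egfr and TCi-HCC981 an Hras mutation, and T-HCA992 and TCi-HCA984 carry none of these. Each class holds 2 mice, both Ctnnb1-mutated tumors come from p21+/Tert mice, and the other classes hold 1 mouse of each genotype. In the names HCC stands for hepatocellular carcinoma and HCA for hepatocellular adenoma, although the study's histology lists T-HCC663 as an adenoma. Each library is 1 tumor or 1 liver of 1 mouse, so p-values measure the spread between mice. The main fits have no term for the mouse and treat the tumor and liver of 1 mouse as independent. Fits with the mouse as a block add that term. Between tumor classes, such fits compare the changes of tumors from the livers of the same mice, not the levels of the tumors. Livers are named L followed by the number of their mouse, so L662 belongs with T-HCC662. The title of L662 carries another animal number, and it was tied to T-HCC662 by elimination.

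Between 14571716 and 26170661 reads were counted on genes per library. Levels below are CPM after TMM scaling. A log2 fold change (log2FC) comes with its standard error (SE) from edgeR's quasi-likelihood test, and a gene was called at a Benjamini-Hochberg adjusted p under 0.05 over all genes tested. All 12 libraries had Ddx3y, which lies on the Y chromosome, at 36.3 to 88.5 CPM and Xist at no more than 1.46 CPM. The liver L984 stood apart. It was the lowest of the 6 livers for Cyp1a2, Cyp2c44, Cyp3a11, Cyp3a25, Cyp3a59, Cyp4f14, and Cyp27a1, each by a gap that a test for an outlying sample singles out, and the highest for Cyp4a31. Counts of calls without it are given for all tumors, for each tumor class against livers, and for Ctnnb1-mutated against other tumors.

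The minimum of 1 CPM left Cyp1b1 (mean 1.13 CPM), Cyp1a1 (1.13 CPM), and Cyp2b10 (1.67 CPM) just inside, and Cyp3a16 (0.738 CPM), Cyp26c1 (0.679 CPM), and Cyp2s1 (0.53 CPM) just outside. Of the 27 symbols below it, 9 had no read in any library. The genes lie mostly in tandem clusters. Chromosome 19 held 14 members, 12 of them of the Cyp2c subfamily, chromosome 7 held 11, chromosome 4 held 9, chromosome 17 held 8, and chromosome 15 held 7, all Cyp2d. For 16 members the longest transcript was at least 95% identical to that of another gene over at least 50% of its length, among them Cyp2a4 and Cyp2a5 (98.2%), Cyp2a12 and Cyp2a22 (95.3%), Cyp3a25 and Cyp3a59 (97%), Cyp4a10 and Cyp4a32 (97.2%), Cyp4f16 and Cyp4f37 (96.1%), and Cyp2c40, Cyp2c67, Cyp2c68, and Cyp2c69. How the authors treated reads that fit several genes is not stated in the sources used here, so the split of reads within these groups is uncertain. The exons of 6 members, including Cyp2a4, Cyp2f2, Cyp2u1, and Cyp2c55, overlap exons of a gene on the opposite strand, and whether the counting used the strand is not stated either.

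Promoters are shown for the members on which the comparison of tumor classes turns, namely Cyp2e1 and Cyp1a2, which were high in the Ctnnb1-mutated tumors, Cyp2f2 and Cyp8b1, which were low in them, and the near-identical pair Cyp2a4 and Cyp2a5. Each run is the 250 bases before the RefSeq start on GRCm38.p6, read 5′ to 3′ on the strand of the gene. Capitals mark every match, on either strand, to letters that known factors bind. For TCF/LEF, the partners of β-catenin, these were TTCAAAG and, as the second form of the same site, ATCAAAG. For the hepatocyte factor HNF4 they were CAAAGTCC. Part of the HNF1 site was searched as GTTAAT, the C/EBP site as TTGCNNAA, and the STAT5 site as TTCNNNGAA. The TATA box was searched as TATAAA and the xenobiotic response element, bound by the aryl hydrocarbon receptor, as GCGTG. No 2 of the matches in these 6 windows overlap.
Cyp2e1 (chr7:140763569-140763818, plus strand): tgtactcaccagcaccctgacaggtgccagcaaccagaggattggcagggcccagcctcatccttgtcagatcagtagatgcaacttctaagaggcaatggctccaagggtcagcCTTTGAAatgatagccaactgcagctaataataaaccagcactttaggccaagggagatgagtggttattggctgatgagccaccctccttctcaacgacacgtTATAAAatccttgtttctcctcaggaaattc
Cyp1a2 (chr9:57683656-57683905, minus strand): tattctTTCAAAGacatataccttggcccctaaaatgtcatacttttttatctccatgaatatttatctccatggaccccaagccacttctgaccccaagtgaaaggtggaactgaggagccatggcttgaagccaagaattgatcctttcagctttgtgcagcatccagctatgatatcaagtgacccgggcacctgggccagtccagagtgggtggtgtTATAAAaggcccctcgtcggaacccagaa
Cyp2f2 (chr7:27119705-27119954, plus strand): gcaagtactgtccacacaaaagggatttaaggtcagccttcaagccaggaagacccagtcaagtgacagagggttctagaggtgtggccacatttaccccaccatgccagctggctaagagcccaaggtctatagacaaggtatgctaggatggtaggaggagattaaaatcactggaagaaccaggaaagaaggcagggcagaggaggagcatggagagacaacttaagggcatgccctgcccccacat
Cyp8b1 (chr9:121916306-121916555, minus strand): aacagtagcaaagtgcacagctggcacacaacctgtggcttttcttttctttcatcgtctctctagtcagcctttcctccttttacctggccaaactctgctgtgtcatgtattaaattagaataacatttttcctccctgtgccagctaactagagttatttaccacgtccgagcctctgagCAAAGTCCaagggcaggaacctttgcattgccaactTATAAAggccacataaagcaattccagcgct
Cyp2a4 (chr7:26306942-26307191, plus strand): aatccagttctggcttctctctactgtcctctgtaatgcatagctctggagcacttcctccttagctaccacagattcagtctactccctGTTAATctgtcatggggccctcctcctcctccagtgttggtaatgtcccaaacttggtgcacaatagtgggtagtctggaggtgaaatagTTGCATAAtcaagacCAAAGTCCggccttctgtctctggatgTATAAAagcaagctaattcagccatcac
Cyp2a5 (chr7:26835089-26835338, plus strand): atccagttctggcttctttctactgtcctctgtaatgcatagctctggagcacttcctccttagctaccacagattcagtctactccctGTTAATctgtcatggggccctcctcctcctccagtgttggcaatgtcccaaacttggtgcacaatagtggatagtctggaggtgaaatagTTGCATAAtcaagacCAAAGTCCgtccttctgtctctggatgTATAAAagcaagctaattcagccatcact
TTCAAAG was present in the Cyp2e1 window, on the opposite strand, and in the Cyp1a2 window, 244 bases before the start, and Cyp3a13 was the third of the 51 members with a window that held it (5.88%, against 4.64% of 27025 windows of all genes). CAAAGTCC was present in 10 of the 51 (19.6%, against 1.22%), among them Cyp8b1, Cyp2a4, and Cyp2a5, and TATAAA in 23 (45.1%, against 13%). GTTAAT was in 7 members (13.7%, against 6.52%), TTGCNNAA in 12 (23.5%, against 9.55%), TTCNNNGAA in 2 (3.92%, against 7.18%), ATCAAAG in 2 (3.92%, against 3.23%), and GCGTG in 10 (19.6%, against 28.2%). The Cyp2f2 window held none of these letters. Aligned with 2 gap bases, the Cyp2a4 and Cyp2a5 windows were identical at 245 bases and differed at 4, and each held the same 4 marked stretches in the same order. A match describes the sequence and was not tested for binding. Unlike Cyp2e1 and Cyp1a2, Cyp3a13 was lower in both Ctnnb1-mutated tumors (63.5 and 77.9 CPM) than in any liver (164 to 387 CPM).

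The members together took 1.3% to 2.44% of all counts in livers and 0.968% to 2.33% in tumors. Their summed level was 15101 CPM in the lowest liver (L984), 21080.4 CPM at the median, and 27465 CPM in the highest. The Ctnnb1-mutated tumors T-HCC662 (22157 CPM) and T-HCC663 (17858 CPM) lay within that range, whereas T-HCC941 (12951 CPM), TCi-HCC981 (9517 CPM), T-HCA992 (9669.6 CPM), and TCi-HCA984 (12397 CPM) lay below all 6 livers. This separation depends on the TMM scaling, because by the plain library total T-HCC941 was at 13713 CPM (1.37% of counts) and above L984 at 13019 CPM (1.3%), while the other 3 stayed below every liver. The sums are descriptions without a test. Per kilobase of exon, which allows genes to be compared, Cyp2e1 was the most abundant member over the 12 libraries, at 2362 CPM per kilobase in livers and 1028 in tumors. Cyp2a5 (438 and 842 CPM per kilobase), Cyp2d26 (639.6 and 619.7), Cyp2a4 (3.4 and 973), and Cyp2d10 (528 and 412) followed. Cyp2e1 led the sum in all 6 livers and both Ctnnb1-mutated tumors, with 20% to 28.7% of it, Cyp3a11 led it in T-HCC941 (23.3%), and Cyp2a4 led it in TCi-HCC981 (29.1%), T-HCA992 (23.9%), and TCi-HCA984 (21.2%).

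**Figure D1:**
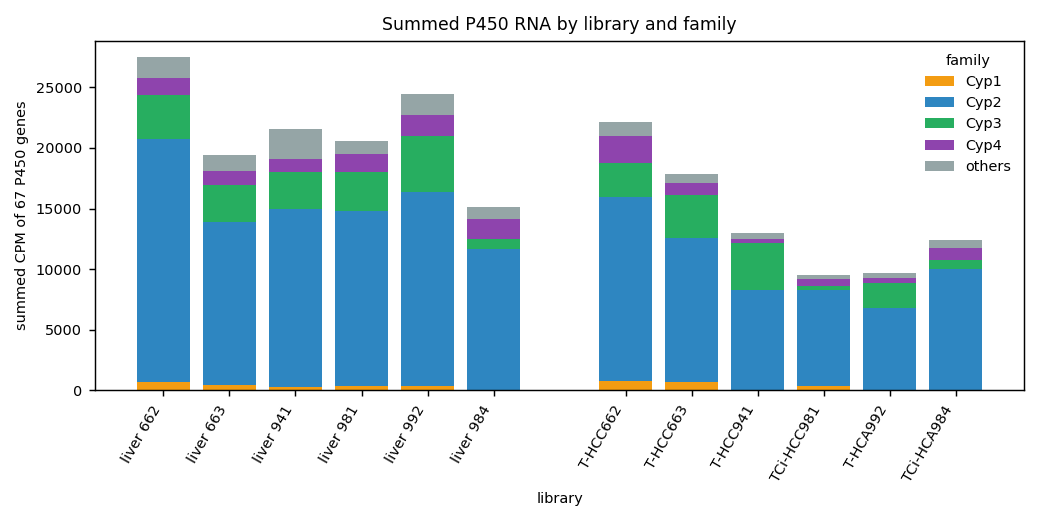
Summed CPM of the 67 P450 genes in each library, stacked by family, with the 6 livers at left and the 6 tumors at right. The 4 tumors without a Ctnnb1 mutation sum to between 9517 and 12951 CPM, below the lowest liver at 15101 CPM after TMM scaling, whereas by the plain library total T-HCC941 (13713 CPM) exceeds L984 (13019 CPM).

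In all 6 tumors against all 6 livers, 66 members were tested, since Cyp2b10 did not pass the expression filter. Of these, 2 rose and 14 fell, which is 3.03% and 21.2%, while 6.77% of the 13822 genes tested rose and 3.91% fell. The median log2FC was -0.68 over the members and 0.01 over all genes tested. Without any overlap of libraries, 8 members were lower in every tumor than in every liver (2.18% of all genes tested were) and 1 was higher (2.93%). Relative to the liver of the same mouse, 24 members were lower in all 6 tumors and 3 (Cyp2a4, Cyp4a31, and Cyp4f16) were higher in all 6, where 11.5% and 11.0% of the 13822 genes tested were. The median log2 ratio of the members to the own liver was -0.37 and -0.24 in the Ctnnb1-mutated T-HCC662 and T-HCC663, -0.91 and -1.99 in T-HCC941 and TCi-HCC981, and -1.06 and -0.30 in T-HCA992 and TCi-HCA984. In bulk tissue fewer cells of a type and less RNA per cell cannot be told apart. Without L984 the calls were 3 higher and 16 lower. Leaving out L662 left 9 lower, leaving out T-HCC941 also left 9 lower, and leaving out T-HCC662 or T-HCC663 gave 4 higher.

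**Figure D2:**
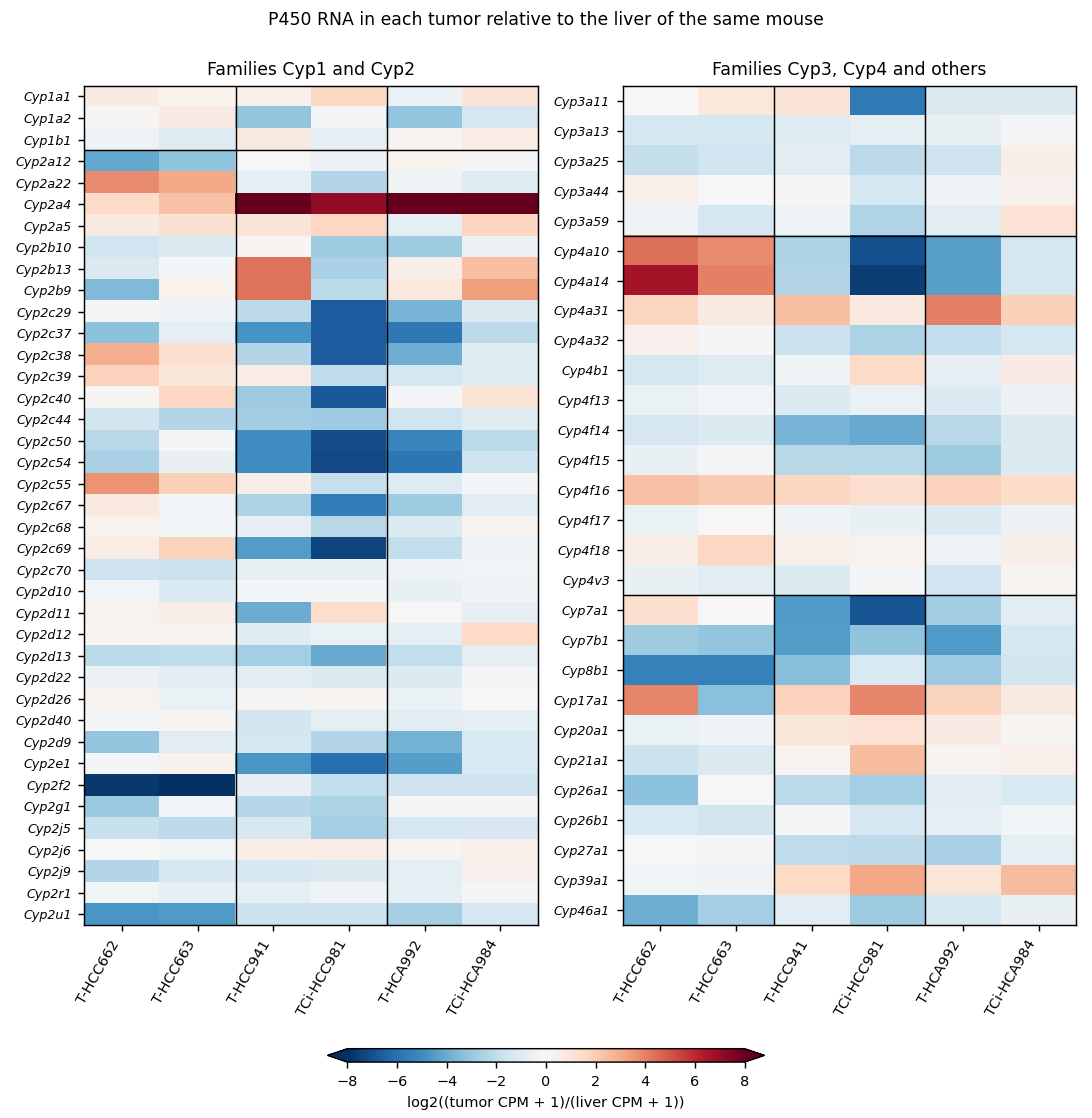
Each row is a P450 gene, each column a tumor, and the color the log2 ratio of (CPM + 1) in the tumor to that in the liver of the same mouse, with colors saturated beyond 8 in either direction. Vertical lines separate Ctnnb1-mutated tumors (left pair), Egfr- or Hras-mutated tumors (middle pair), and tumors with neither (right pair). Most cells are blue, Cyp2a4 is dark red in the last 4 columns, and Cyp2f2 is dark blue in the first 2.

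By family, the calls were 1 higher and 9 lower of 35 in Cyp2, 1 and 1 of 12 in Cyp4, 0 and 4 of 11 in the higher families, and none of 3 in Cyp1 or of 5 in Cyp3, where 0 and 1 had an unadjusted p under 0.05. DESeq2 called 4 higher and 17 lower over all members (10.5% and 6.92% of the genes it tested). The median log2FC was -0.76 in Cyp2, -0.72 in Cyp3, -0.34 in Cyp4, 0.01 in Cyp1, and -0.94 in the higher families.

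Among the arachidonic acid epoxygenases of family Cyp2, Cyp2j5 had the smallest p of all members. It was between 389.9 and 591 CPM in livers (median 453 CPM) and at 147, 103, 176, 68.6, 224, and 154 CPM in T-HCC662, T-HCC663, T-HCC941, TCi-HCC981, T-HCA992, and TCi-HCA984, so that no tumor reached the lowest liver. It fell by 1.70 on the log2 scale (SE 0.26, edgeR adjusted p = 0.00219). Cyp2c37 ranged from 86.3 to 778 CPM in livers (median 460.4 CPM) and stood at 47, 49.9, 16.8, 6.83, 9.93, and 70.1 CPM in the tumors in the same order. These groups did not overlap either, and it fell by 3.74 (SE 0.65, adjusted p = 0.00418 by edgeR). Cyp2c54 (63.6 to 291 CPM in livers, 0.925 to 46.5 CPM in tumors) fell by 3.33 (SE 0.82, edgeR adjusted p = 0.0222) and Cyp2c44 (84.4 to 406 CPM in livers, 34.5 to 144 CPM in tumors) by 2.03 (SE 0.42, edgeR adjusted p = 0.0087). For Cyp2c44 only T-HCC662 overlapped the livers, through L984. Cyp2u1, a fatty acid hydroxylase, was at 6.55 to 27.7 CPM in livers and at 0.0451, 0.263, 2.48, 1.34, 3.26, and 5.11 CPM in the tumors in the order above, and it fell by 3.14 (SE 0.75, edgeR adjusted p = 0.0193). Its lowest value rests on 1 read, in T-HCC662.

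Cyp2c50, a close relative of Cyp2c37 and Cyp2c54, was lower in every tumor (4.16 to 201 CPM) than in every liver (213 to 914 CPM), with a log2FC of -2.86 (SE 0.78, edgeR adjusted p = 0.0338). Its call was lost without L662, L941, or L992 or without T-HCC941, TCi-HCA984, or T-HCA992 (edgeR adjusted p from 0.0553 to 0.0677). Cyp2d13, a gene that RefSeq lists as a transcribed pseudogene, fell by 1.91 (319 to 632 CPM in livers, 20.8 to 278 CPM in tumors, SE 0.49, edgeR adjusted p = 0.0266), and not without L662 (0.0624), T-HCC941 (0.058), or T-HCA992 (0.0595). Cyp2d9, a male-biased testosterone hydroxylase, fell by 1.92 (499 to 2229 CPM in livers, 70.8 to 594 CPM in tumors, SE 0.51, edgeR adjusted p = 0.0303), and its call was lost without L662, L663, or L941, T-HCC941, or TCi-HCC981, with adjusted p between 0.0502 and 0.0736. The fall of Cyp2c69 by 4.81 (SE 1.38, edgeR adjusted p = 0.0404) rested on L981, at 302 CPM against 0.193 to 44.7 CPM in the other livers and 0.873 to 3.98 CPM in tumors. With the mouse as a block its adjusted p was 0.434, and without L981 it was 0.115 with a log2FC of -2.54. It was also lost without L941 and without each of the 6 tumors in turn (0.0548 to 0.089).

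Cyp2a4, a testosterone hydroxylase that is female-biased in the mouse liver, was the member with the largest rise. Its gene lies at chr7:26307169-26315088 on the plus strand of GRCm38. Livers had 0.682 to 19.1 CPM (median 4.86 CPM), T-HCC662 and T-HCC663 had 16.4 and 28 CPM, and T-HCC941, TCi-HCC981, T-HCA992, and TCi-HCA984 had 2385, 2773, 2314, and 2627 CPM. The latter 4 tumors lay above every other library. Over all tumors the log2FC was 8.15 (SE 1.45, edgeR adjusted p = 0.00437). Cyp2a5, its near-identical neighbor and a coumarin hydroxylase, was at 66.4 to 2193 CPM in livers and 3659, 3037, 1561, 1642, 349.8, and 224 CPM in the tumors in the same order, with a log2FC of 0.93 (SE 0.75, edgeR adjusted p = 0.473). Reads of the pair may be divided between them in unknown shares, and the Ctnnb1-mutated tumors had the highest Cyp2a5 and the lowest Cyp2a4 of the 6 tumors. The other member that rose was Cyp4f16, which was at 2.26 to 9.24 CPM in livers and at 12.4 to 28.8 CPM in tumors, above every liver (log2FC 1.91, SE 0.34, edgeR adjusted p = 0.00427).

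Among the enzymes that act on sterols and bile acid precursors, Cyp7b1, the oxysterol hydroxylase of the alternative bile acid pathway, was at 74.7 to 764 CPM in livers (median 267 CPM) and at 57.1, 41.9, 34.2, 15, 5.95, and 29.4 CPM in the 6 tumors in the order T-HCC662, T-HCC663, T-HCC941, TCi-HCC981, T-HCA992, and TCi-HCA984. It fell by 3.42 (SE 0.63, edgeR adjusted p = 0.00526). Cyp8b1, which directs bile acid synthesis toward cholic acid, was at 63.3 to 635 CPM in livers and at 8.61, 3.11, 46.5, 26.2, 85.6, and 59.4 CPM in the tumors. Its groups overlapped only through L981 (63.3 CPM) and T-HCA992, and it fell by 3.09 (SE 0.75, edgeR adjusted p = 0.0211). Cyp46a1, the cholesterol hydroxylase best known from the brain, was low everywhere, at 4.6 to 16 CPM in livers and 0.135 to 2.67 CPM in tumors, and fell by 2.65 (SE 0.62, edgeR adjusted p = 0.0176). Cyp26a1, which breaks down retinoic acid, was at 15.9 to 77.7 CPM in livers and 3.51 to 17.2 CPM in tumors (log2FC -1.78, SE 0.46, edgeR adjusted p = 0.0262), a call lost without L662 (0.0556) or T-HCC941 (0.0537). Cyp4f14, which omega-hydroxylates leukotriene B and vitamin E, stood at 66.2 to 335 CPM in livers and at 11.9 to 145 CPM in tumors (log2FC -1.93, SE 0.58, edgeR adjusted p = 0.0486). This call was lost in 9 of 12 fits that left out 1 library, holding only without L984, T-HCC662, or T-HCC663, with adjusted p up to 0.0928. The calls of Cyp2a4, Cyp2c37, Cyp2c44, Cyp2c54, Cyp2j5, Cyp2u1, Cyp4f16, Cyp7b1, Cyp8b1, and Cyp46a1 held in each of the 12 such fits.

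**Figure D3:**
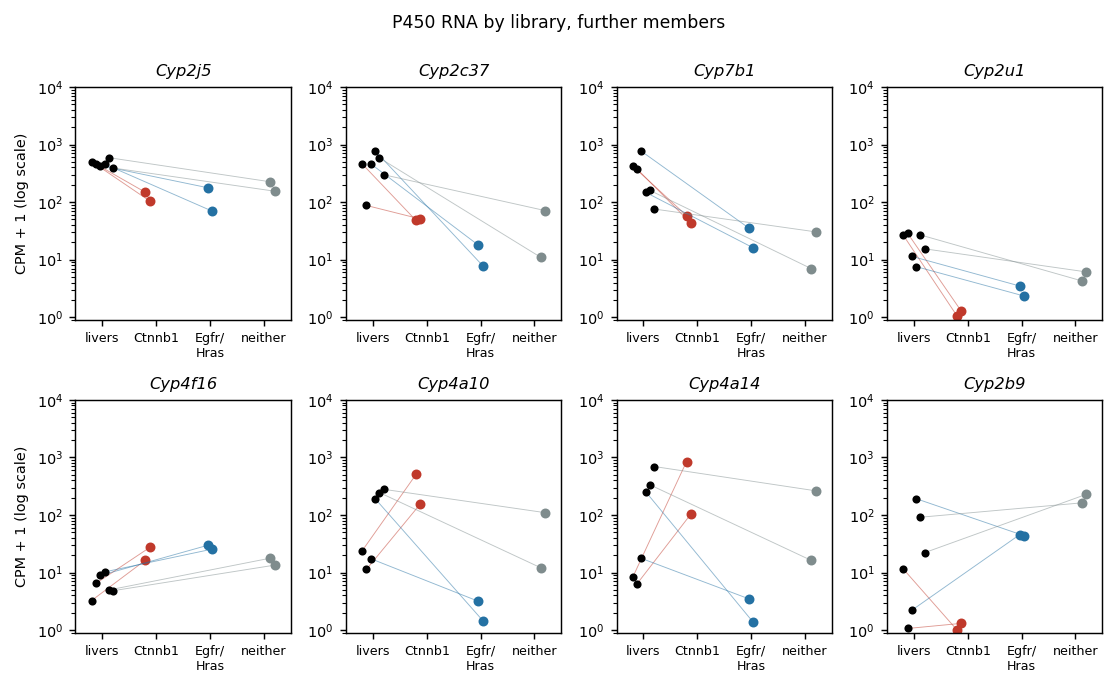
CPM + 1 on a log axis in each library for 8 members, with livers in black and tumors in red (Ctnnb1), blue (Egfr or Hras), and gray (neither), and a line from each liver to the tumor of the same mouse. Cyp2j5, Cyp2c37, Cyp7b1, and Cyp2u1 are lower in each tumor than in any liver, Cyp4f16 is higher, and Cyp4a10, Cyp4a14, and Cyp2b9 spread widely among the livers.

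The Ctnnb1-mutated tumors differed from the 4 other tumors in 19 members. Of 67 tested, 11 were higher in the Ctnnb1-mutated tumors and 8 were lower (16.4% and 11.9%), against 6.76% and 5.72% of the 15182 genes tested. The median log2FC of the members was 0.24 (0.00 over all genes). By family, 5 members were higher and 5 lower in Cyp2, 4 and 0 in Cyp4, 1 and 0 in Cyp1, and 1 and 3 in the higher families, with none of 5 in Cyp3. Both Ctnnb1-mutated libraries lay above the other 4 for 16 members and below them for 14, where 18.5% and 19% of all genes tested did so. With the mouse as a block, 4 were higher and 5 lower, and 6 of the 19 calls (Cyp2a12, Cyp2a4, Cyp2f2, Cyp2u1, Cyp4a10, and Cyp8b1) were kept. DESeq2 called 15 higher and 14 lower (9.68% and 10.9% of the genes it tested). Without T-HCC662 the edgeR counts were 3 higher and 2 lower. Without T-HCC663 they were 6 and 3. Without TCi-HCC981 the number higher was 6, without T-HCA992 it was 6, and without TCi-HCA984 the number lower was 5. Without L984 they were 13 and 9.

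**Figure D4:**
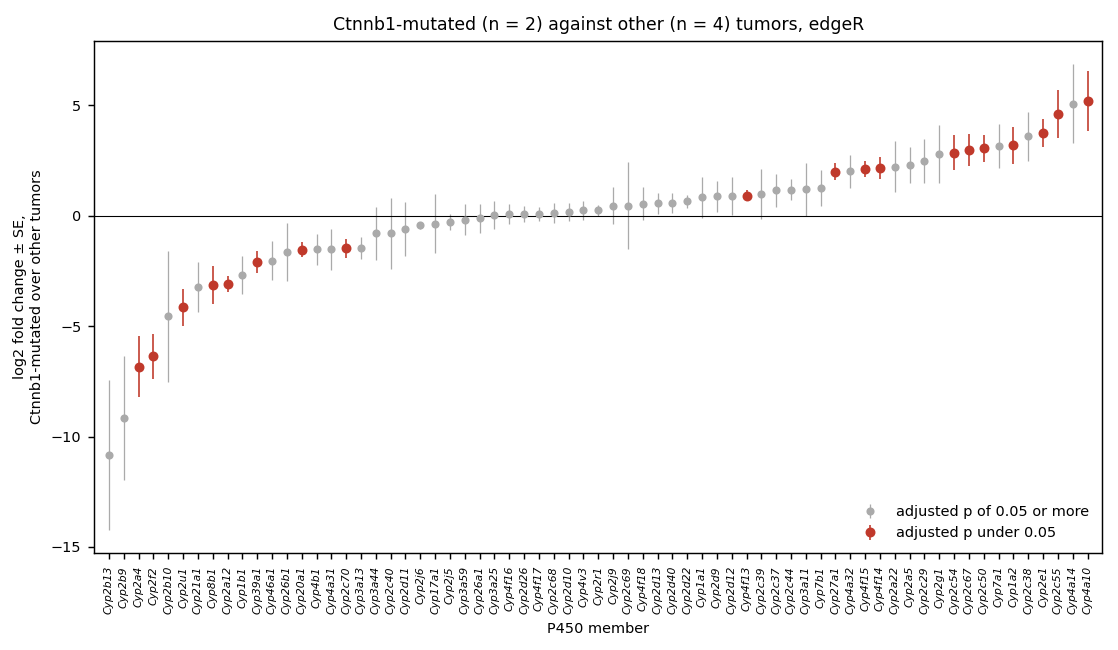
Log2 fold change of each of the 67 members in Ctnnb1-mutated (n = 2) over other (n = 4) tumors, with bars of 1 SE and members ordered by value. Red points passed the adjusted p threshold, 8 below 0 and 11 above it. The lowest points, Cyp2b13 and Cyp2b9, come from genes with 0 to 0.307 CPM in the Ctnnb1-mutated tumors, so their fitted values depend on the small count added by the fit.

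The pericentral list (Cyp1a2, Cyp2a5, Cyp2c29, Cyp2c37, Cyp2c50, Cyp2c54, Cyp2e1, and Cyp7a1) had 4 of 8 members higher in the Ctnnb1-mutated tumors and none lower, with a median log2FC of 2.95. Between these classes 6.76% of all genes tested were higher and 5.72% lower. Cyp2e1, which oxidizes ethanol and acetaminophen and lies at chr7:140763739-140774987 on the plus strand of GRCm38, was at 4044 to 6378 CPM in livers, 5841 and 5058 CPM in T-HCC662 and T-HCC663, and 233, 75.7, 234, and 1872 CPM in T-HCC941, TCi-HCC981, T-HCA992, and TCi-HCA984. The Ctnnb1-mutated tumors thus lay inside the range of the livers and the other 4 below it. The log2FC between the classes was 3.75 (SE 0.65, edgeR adjusted p = 0.00591, and 0.0717 with the block). Cyp2c50 was at 157 and 201 CPM in the Ctnnb1-mutated tumors and 15.2, 4.16, 23.4, and 71.4 CPM in the others (log2FC 3.05, SE 0.62, edgeR adjusted p = 0.0114, and 0.137 with the block). Unlike Cyp2e1, it was below the livers in both classes.

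Cyp1a2, which metabolizes caffeine, was at 752 and 657 CPM in the Ctnnb1-mutated tumors and at 33.5, 333, 45.8, and 19.4 CPM in the others, with 50.3 to 705 CPM in livers (log2FC between classes 3.18, SE 0.84, edgeR adjusted p = 0.0333, and 0.218 with the block). Its call was lost without T-HCC662 (0.125), T-HCC663 (0.0857), T-HCC941 (0.0527), TCi-HCA984 (0.0919), or T-HCA992 (0.0649). Cyp2c54 stood at 46.5 and 42.2 CPM against 0.925 to 19.2 CPM (log2FC 2.86, SE 0.78, edgeR adjusted p = 0.0353, and 0.223 with the block), a call lost without T-HCC662, T-HCC663, TCi-HCC981, or T-HCA992 (0.0872 to 0.132). The remaining pericentral members did not pass the test between classes. Cyp2a5 had a log2FC of 2.30 (edgeR adjusted p = 0.0892), Cyp2c29 2.47 (0.118), Cyp2c37 1.14 (0.334), and Cyp7a1, the rate-limiting enzyme of bile acid synthesis, 3.15 (0.0607). Cyp7a1 was at 302 and 111 CPM in the Ctnnb1-mutated tumors, at 13.2, 0.154, 21, and 140.4 CPM in the others, and at 108 to 332 CPM in livers.

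The members lowest in the Ctnnb1-mutated tumors included Cyp2f2, the periportal marker, an enzyme that oxidizes naphthalene. It was at 228 to 1106 CPM in livers, 3.38 and 1.93 CPM in T-HCC662 and T-HCC663, and 352, 100.2, 356, and 71.3 CPM in the 4 other tumors. Its mean in the Ctnnb1-mutated tumors was 82.8-fold below that of the other tumors (log2FC -6.37, SE 1.03, edgeR adjusted p = 0.00385, and 0.00311 with the block). Cyp2a12, a steroid hydroxylase, was at 335 to 739.7 CPM in livers, 42.4 and 56.8 CPM in the Ctnnb1-mutated tumors, and 322, 326, 570.5, and 502 CPM in the others (log2FC -3.08, SE 0.35, edgeR adjusted p = 0.000519, and 0.0101 with the block). Cyp2a22, its near-identical neighbor on chromosome 7, was at 37.6 and 24.8 CPM against 0.972 to 26.4 CPM (log2FC 2.21, edgeR adjusted p = 0.218, and 0.00494 with the block). Its levels thus overlapped between the classes, and the blocked fit compares changes from the own liver. L662, L663, and L941 were at 1.77 to 2.275 CPM and L981, L992, and L984 at 14.5 to 53.5 CPM. The other periportal member of the list, Cyp17a1, was at 147 and 2.89 CPM in the Ctnnb1-mutated tumors and did not pass (log2FC -0.36, edgeR adjusted p = 0.889).

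**Figure D5:**
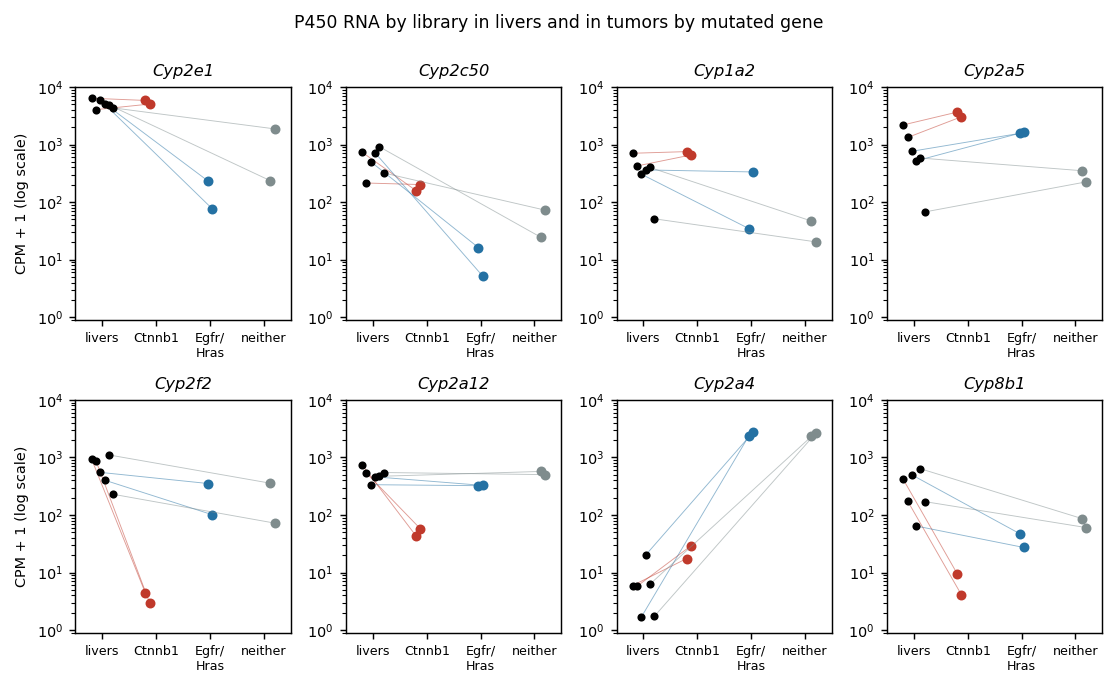
CPM + 1 on a log axis in each library for 8 members, with livers in black and tumors in red (Ctnnb1), blue (Egfr or Hras), and gray (neither), and a line from each liver to the tumor of the same mouse. The 2 red points of Cyp2e1 stay at the level of the livers while those of Cyp2f2 and Cyp2a12 drop, and Cyp2a4 is near the livers in red and at 2314 CPM or more in the 4 blue and gray points.

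Cyp8b1 and Cyp2u1 fell in all tumors and were lower still in the Ctnnb1-mutated ones. For Cyp8b1 the log2FC between classes was -3.14 (SE 0.88, edgeR adjusted p = 0.0394, and 0.0483 with the block), lost without L662 (0.0514) or without any 1 of the 6 tumors (up to 0.206 without T-HCC663). For Cyp2u1 it was -4.14 (SE 0.83, edgeR adjusted p = 0.0112, and 0.0174 with the block), lost without T-HCC662 (0.0999). Cyp2a4 differed by -6.84 (SE 1.39, edgeR adjusted p = 0.0117, and 0.0429 with the block), and its call was lost without T-HCC662 (0.105) or T-HCC663 (0.0664). Cyp39a1, an oxysterol hydroxylase, was at 4.58 to 20.2 CPM in livers, 11.4 and 14.7 CPM in the Ctnnb1-mutated tumors, and 51.1, 46.4, 41.1, and 86.6 CPM in the others (log2FC between classes -2.11, SE 0.51, edgeR adjusted p = 0.0231, and 0.0797 with the block). The call was lost without T-HCC662 (0.152), T-HCC663 (0.091), or TCi-HCA984 (0.0511). Cyp20a1, whose substrate is not established, followed the same order at lower levels, with 4.64 and 4.21 CPM against 11 to 15.6 CPM (log2FC -1.54, SE 0.33, edgeR adjusted p = 0.0142, 0.0991 with the block, 0.0886 without T-HCC662, and 0.0818 without T-HCC663). Cyp2c70, which makes the muricholic acids of the mouse, was at 86.7 and 150.4 CPM against 231 to 442 CPM (log2FC -1.49, SE 0.43, edgeR adjusted p = 0.0423, and 0.0743 with the block), and its call was lost in 8 of 12 fits with 1 library left out (L663 and L992 and each of the 6 tumors), with adjusted p up to 0.26.

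Of the remaining members higher in the Ctnnb1-mutated tumors, Cyp27a1, the mitochondrial sterol hydroxylase, was at 648 and 544 CPM against 120.1 to 189.7 CPM, with 243 to 790.4 CPM in livers (log2FC between classes 1.99, SE 0.37, edgeR adjusted p = 0.008, 0.126 with the block, and 0.0599 without T-HCC662). Cyp2c55 was at 81.7 and 36.3 CPM against 0.341 to 5.09 CPM, and no liver exceeded 11.3 CPM (log2FC 4.60, SE 1.09, edgeR adjusted p = 0.0219, 0.0925 with the block, and 0.122, 0.0669, and 0.0554 without T-HCC662, TCi-HCC981, and TCi-HCA984). Cyp2c67 was at 407 and 328 CPM against 3.54 to 100.2 CPM (log2FC 2.97, SE 0.72, edgeR adjusted p = 0.0238, 0.137 with the block, and 0.109, 0.0615, and 0.0731 without T-HCC662, T-HCC663, and T-HCA992).

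Fatty acid omega hydroxylases of family Cyp4 were higher in the Ctnnb1-mutated than in the other tumors in 6 of 11 genes of the list and lower in none. Their median log2FC was 2.11, and 6.76% of all genes tested were higher and 5.72% lower. Against livers, 0 of the 11 were called in the Ctnnb1-mutated tumors (median log2FC -0.03). In the Egfr- or Hras-mutated tumors 6 fell (-2.17), and in those with neither mutation 5 fell and 1 rose (-1.13). Of the 6 genes higher between classes, 4 are members. Cyp4a10, a target of the fatty acid receptor PPARα, was at 505 and 154 CPM in T-HCC662 and T-HCC663 and at 2.16, 0.462, 11.1, and 109 CPM in T-HCC941, TCi-HCC981, T-HCA992, and TCi-HCA984 (log2FC 5.21, SE 1.36, edgeR adjusted p = 0.0309, and 0.0443 with the block). The call was lost without T-HCC662 (0.155), T-HCC941 (0.0614), TCi-HCC981 (0.108), or T-HCA992 (0.0873). Its livers spread from 10.4 CPM to 279 CPM, with 22.9, 10.4, and 16.4 CPM in L662, L663, and L941 and 191, 245, and 279 CPM in L981, L992, and L984. Cyp4a14, another PPARα target, had the same split of the livers, at 5.35 to 16.6 CPM in the first 3 livers and 253 to 695 CPM in the latter 3, and did not pass between classes (848 and 103 CPM against 0.36 to 262 CPM, log2FC 5.07, edgeR adjusted p = 0.0822). Further members separated the same livers without overlap. Among them, Cyp2a5 was at 763 to 2193 CPM in the first 3 livers and 66.4 to 581 CPM in the latter 3. Cyp7b1 was at 375 to 764 CPM against 74.7 to 159 CPM, and Cyp2j9 at 26.9 to 30.5 CPM against 2.18 to 10.3 CPM. This split follows the sample titles, which begin with p for L662, L663, L941, and their tumors and not for the other mice. What the naming stands for is not given. The naming overlaps with the Ctnnb1-mutated class, because both tumors of that class and their livers have such titles. T-HCC941 has such a title without a Ctnnb1 mutation, and it was at 2.16 CPM for Cyp4a10 and 2.48 CPM for Cyp4a14. The part of the naming in these values was not tested. Cyp4f15 was at 209 and 240.1 CPM against 24.8 to 66 CPM (log2FC 2.11, SE 0.37, edgeR adjusted p = 0.00602, and 0.114 with the block). Cyp4f14 differed by 2.16 (edgeR adjusted p = 0.0199, 0.0715 with the block, and 0.0554 to 0.1 without T-HCC662, T-HCC663, TCi-HCC981, or TCi-HCA984) and Cyp4f13 by 0.90 (edgeR adjusted p = 0.0364, 0.468 with the block, and 0.0668 to 0.15 without T-HCC662, T-HCC663, T-HCC941, TCi-HCC981, or T-HCA992). The uncalled members of the list were Cyp4a31 (1.89 to 14.9 CPM in livers, 4.06 to 58.3 CPM in tumors), Cyp4a32 (22.5 to 75.6 CPM and 3.44 to 79 CPM), Cyp4f17 (10.1 to 21.9 CPM and 9.28 to 15.2 CPM), and Cyp4v3 (278 to 572 CPM and 143 to 393 CPM), beside Cyp4a14. The other 2 genes of the 6, Cyp4a12a and Cyp4a12b, are male-biased, and their log2FC between classes was 3.84 and 6.04 (edgeR adjusted p = 0.0069 and 0.000743). With the block Cyp4a12a lost its call (0.153) and Cyp4a12b kept it (0.0206). The calls of Cyp2a12, Cyp2c50, Cyp2e1, Cyp2f2, and Cyp4f15 held in each of the 12 fits that left out 1 library.

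Relative to the liver of the same mouse, 7 members were higher in both Ctnnb1-mutated tumors and lower in all 4 others (Cyp1a2, Cyp2a22, Cyp2c38, Cyp2c69, Cyp4a10, Cyp4a14, and Cyp7a1), and 4 had the opposite pattern (Cyp2j6, Cyp20a1, Cyp21a1, and Cyp39a1). Of the 13822 genes tested, 5.01% and 4.83% had these patterns. Of these 11, the difference between classes was called for Cyp1a2, Cyp4a10, Cyp20a1, and Cyp39a1. Cyp2c38 was at 143 and 38.5 CPM in T-HCC662 and T-HCC663, at 9.02, 4.34, and 20.6 CPM in T-HCC941, T-HCA992, and TCi-HCA984, and listed at 0 counts in TCi-HCC981, with 15.4 to 99.8 CPM in livers (log2FC between classes 3.59, edgeR adjusted p = 0.0551). Cyp2c69 had a log2FC of 0.45 (edgeR adjusted p = 0.906, and 0.0357 with the block), Cyp2j6, an epoxygenase, one of -0.44 (0.106), and Cyp21a1, a steroid hydroxylase, one of -3.23 (0.0798).

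Each class was also set against the same 6 livers, so the 3 sets of values share their reference. In the Egfr- or Hras-mutated tumors 5 members rose and 20 fell (7.46% and 29.9%, against 9.57% and 8.62% of 15182 genes, 18.2% in either direction), with a median log2FC of -1.34. In the tumors with neither mutation 3 rose and 10 fell (4.48% and 14.9%, against 5.67% and 2.43%, 8.1% in either direction), with a median of -1.08. In the Ctnnb1-mutated tumors 2 rose and 9 fell (2.99% and 13.4%, against 5.0% and 3.2%, 8.2% in either direction), with a median of -0.52. The median over all genes was -0.03 in each of the 3. DESeq2 called 5 members higher and 30 lower in the Egfr- or Hras-mutated tumors (12.0% and 12.5% of the genes it tested), 5 and 19 in those with neither mutation (8.09% and 6.75%), and 2 and 19 in the Ctnnb1-mutated tumors (6.97% and 7.13%). For the pericentral list the counts of members that fell were 5 of 8 in the Egfr- or Hras-mutated tumors (median log2FC -4.96), 3 of 8 in those with neither mutation (-3.01), and 0 of 8 in the Ctnnb1-mutated tumors (-0.18).

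These counts rest on few tumors. Without TCi-HCC981 the Egfr- or Hras-mutated class, then T-HCC941 alone, had 2 higher and 6 lower, and without T-HCC941 it had 2 and 13. Without T-HCA992 the class with neither mutation had 0 lower, without TCi-HCA984 it had 1 higher, without L662, L663, or L941 it had 5, 6, and 6 lower, and with the block it had 1 lower. Without T-HCC662 the Ctnnb1-mutated class had 1 higher and 4 lower, and without T-HCC663 it had 0 and 4. It had 1 higher without L662, L663, or L941. Without L984, 3 members were higher and 8 lower in the Ctnnb1-mutated class. The counts were then 6 and 20 in the Egfr- or Hras-mutated class and 4 and 12 in the class with neither mutation. Where a class is left with 1 library, that library is assumed to vary like the other groups. Cyp2a12, Cyp2f2, and Cyp2u1 were called in each of the 12 fits for the Ctnnb1-mutated tumors, with log2FC of -3.40, -8.02, and -6.86. Cyp2a4, Cyp2c50, Cyp2c54, Cyp2d13, Cyp2e1, Cyp2j5, Cyp4f14, and Cyp4f16 were called in each for the Egfr- or Hras-mutated tumors, with log2FC of 8.73, -5.90, -5.96, -3.62, -5.08, -1.97, -4.00, and 2.26, and for the tumors with neither mutation Cyp2a4 alone was, with 8.70. Cyp2a4 was also the one call of that class kept with the block, while Cyp2c55 (0.0841) lost its call with the block in the Ctnnb1-mutated class and Cyp2d22, Cyp2j6, Cyp2r1, Cyp4a10, Cyp4f13, and Cyp26a1 lost theirs in the Egfr- or Hras-mutated class (0.0563 to 0.238). TCi-HCC981 had the lowest level of all 12 libraries for Cyp2e1 (75.7 CPM), Cyp2c29 (2.16 CPM), Cyp2c37 (6.83 CPM), Cyp3a11 (41.4 CPM), and Cyp7a1 (0.154 CPM, from 3 reads).

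Between the Egfr- or Hras-mutated tumors and those with neither mutation, edgeR called none of the 67 members and none of 15182 genes (0.0%), with 10 members at an unadjusted p under 0.05. DESeq2 called 2, Cyp2d13 and Cyp2e1, both lower in the Egfr- or Hras-mutated tumors, where it called 0.739% of the genes it tested in either direction. Each class has 2 tumors, and Cyp2e1 in TCi-HCA984 (1872 CPM) was above the other 3. The study lists T-HCC941 and TCi-HCC981 as carcinomas and T-HCA992 and TCi-HCA984 as adenomas. Mutation and histology can therefore not be told apart between these classes.

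The functional lists in all tumors against livers showed 3 of 8 pericentral members lower, 0 of 2 periportal, 3 of 7 bile acid genes lower (Cyp7b1, Cyp8b1, and Cyp46a1), 1 of 11 omega hydroxylases lower (Cyp4f14), and no aryl hydrocarbon receptor target changed. Median log2FC was -1.39, -0.39, -1.04, -0.62, and 0.01 for these 5 lists and 0.01 over all genes tested, of which 6.77% rose and 3.91% fell. Cyp1a1, the strongest known target of that receptor, remained at 0.0485 to 1.29 CPM in livers and 0.322 to 2.72 CPM in tumors (log2FC 1.23, SE 0.66, edgeR adjusted p = 0.261), and Cyp1b1, at 0.607 to 2.15 CPM in livers and 0.131 to 2.69 CPM in tumors, had a log2FC of 0.01 (SE 0.65, edgeR adjusted p = 0.997). Of the bile acid genes not called, Cyp7a1 had a log2FC of -0.94 (edgeR adjusted p = 0.573), Cyp27a1 -1.04 (0.171), Cyp39a1 1.53 (0.0531), and Cyp2c70 -0.74 (0.235).

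Targets of the xenobiotic receptors CAR and PXR had 1 of 5 tested members lower (Cyp2c37), where 3.91% of all genes tested were, and a median log2FC of -0.72. Cyp3a11, the most abundant member of family Cyp3 and a PXR target, was at 297 to 3718 CPM in livers (median 1945 CPM) and at 2441, 3078, 3022, 41.4, 1735, and 139.6 CPM in T-HCC662, T-HCC663, T-HCC941, TCi-HCC981, T-HCA992, and TCi-HCA984. Both tumors of p21+/TertCi mice were thus the lowest, although L984 was low too, and the log2FC over all tumors was -0.19 (SE 0.82, edgeR adjusted p = 0.912). Cyp2c29 had a log2FC of -1.56 (edgeR adjusted p = 0.249), Cyp3a13 one of -0.72 (edgeR adjusted p = 0.285, and 0.0262 with the block), and Cyp2c55 one of 1.94 (edgeR adjusted p = 0.296). In the Ctnnb1-mutated tumors against livers, Cyp3a13 was called lower (63.5 and 77.9 CPM against 164 to 387 CPM). That call was lost without L663, L941, L981, or L984 or without T-HCC662, T-HCC663, T-HCC941, or TCi-HCC981. Cyp2b10, the classic phenobarbital-induced CAR target, was at 1.98, 1.1, 0, 6.47, 9.18, and 0.533 CPM in L662, L663, L941, L981, L992, and L984. It was listed at 0 counts in T-HCC662 and T-HCC663, which allows up to 0.135 and 0.131 CPM (3 counts), and at no more than 0.394 CPM in the other tumors. It is the member that failed the filter in the comparison of all tumors. In the model with tumor classes its log2FC in the Ctnnb1-mutated tumors was not called (edgeR adjusted p = 0.0644).

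Of the retinoic acid and vitamin D genes, Cyp26a1 fell as above. Cyp26b1 (0.379 to 11.9 CPM in livers, 0.27 to 10.1 CPM in tumors) and Cyp2r1, which starts the activation of vitamin D (12.2 to 22.3 CPM in livers, 9.18 to 15.8 CPM in tumors), were not called, with edgeR adjusted p of 0.56 (0.0303 with the block) and 0.106, and Cyp26c1, Cyp24a1, and Cyp27b1 did not pass the filter. Of the steroid hormone genes, Cyp17a1 (1.64 to 98.3 CPM in livers, 2.89 to 165 CPM in tumors) and Cyp21a1 (1.64 to 13 CPM in livers, 0.964 to 17.6 CPM in tumors) were not called, and Cyp11b1 and Cyp19a1 had no read in any library. Cyp51, the P450 of cholesterol synthesis, was at 45.3 to 276 CPM in livers and 134 to 602 CPM in tumors (log2FC 0.88, edgeR adjusted p = 0.222).

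The male-biased list (Cyp2d9, Cyp4a12a, Cyp4a12b, Cyp7b1, and Cyp2u1) had 3 of 5 genes lower in tumors and none higher, with a median log2FC of -1.92. In this comparison 3.91% of all genes tested were lower and 6.77% higher. The female-biased list had 9 genes tested, 1 higher (Cyp2a4), 1 lower (Cyp2c69), and a median of 0.60. By class against livers, its median was -0.98 in Ctnnb1-mutated tumors, -0.69 in Egfr- or Hras-mutated tumors, and 1.22 in those with neither mutation. For the male-biased list these medians were -1.41, -3.75, and -2.87. Cyp4a12a and Cyp4a12b were not called against livers in the Ctnnb1-mutated tumors, with log2FC of -0.03 and 2.09. Cyp2b9, a female-biased form, was at 10.5, 0.0645, 1.21, 191, 90.4, and 21.2 CPM in L662, L663, L941, L981, L992, and L984 and at 0, 0.307, 44.3, 42.8, 162, and 227 CPM in their tumors. Cyp2b13 had no read in T-HCC662 or T-HCC663 and 19.2, 0.154, 8.38, and 19.9 CPM in T-HCC941, TCi-HCC981, T-HCA992, and TCi-HCA984. Between tumor classes neither was called (edgeR adjusted p = 0.0539 for Cyp2b9 and 0.0608 for Cyp2b13). Cyp3a44 (0.436 to 7.57 CPM in livers, 0.36 to 5.52 CPM in tumors) and Cyp2c40 (1.48 to 191 CPM in livers, 0.77 to 17.4 CPM in tumors) were not called in all tumors (edgeR adjusted p = 0.811 and 0.15). Cyp2c40 and Cyp2c69 were high in the same liver, L981.

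By genotype, the 4 p21+/Tert tumors against the 4 p21+/Tert livers gave 2 members higher and 6 lower of 67 (4.2% and 2.3% of all genes tested, 6.49% in either direction), and 10 lower with the block. DESeq2 called 3 higher and 18 lower (8.85% and 5.13% of the genes it tested). The libraries did not overlap for 3 members above and 14 below (8.48% and 6.88% of all genes tested). The rises were those of Cyp2a4 (log2FC 8.22, edgeR adjusted p = 0.0249, and 0.164 with the block) and Cyp4f16, and the falls those of Cyp2c37 (edgeR adjusted p = 0.0281, and 0.0839 with the block), Cyp2c44, Cyp2j5, Cyp2u1, Cyp7b1, and Cyp8b1. The number lower fell to 1 without L662, 3 without L663 or L992, 2 without L941, and 2 without T-HCC941. The number higher fell to 0 without L662 or L663 and to 1 without L941 or L992. Both p21+/TertCi tumors against the livers of the same mice gave no call by edgeR for members or for any gene (0.0%), with 16 members at an unadjusted p under 0.05 and 9 called by DESeq2 (3 higher and 6 lower, where 2.03% and 0.455% of the genes it tested were called). The libraries did not overlap for 8 members above and 30 below (21.5% and 22.2% of all genes tested). The median log2FC of the members was -0.72 in p21+/Tert and -1.13 in p21+/TertCi mice. The difference between the genotypes was tested as an interaction and gave no call by edgeR, with 5 members at an unadjusted p under 0.05 and 1 call, Cyp3a11, by DESeq2 (adjusted p = 0.0496, where 0.131% of the genes it tested were called). Since both Ctnnb1-mutated tumors come from p21+/Tert mice, the effects of genotype and mutation cannot be told apart for them.

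Of 17 genes for electron donors and heme turnover, 0 rose and 1 fell in all tumors (Urod, which acts in heme synthesis), where 6.77% and 3.91% of all genes tested did. Between tumor classes 4 of 17 were higher in the Ctnnb1-mutated tumors, among them Por, Fdxr, and Alad, and none was lower. Of all genes tested, 6.76% were higher and 5.72% lower. With the block the call of Fdxr was lost (edgeR adjusted p = 0.0468, and 0.598 with the block), and that of Alad was kept (0.0445). Por was at 214 to 523 CPM in livers, 864 and 456 CPM in the Ctnnb1-mutated tumors, and 281, 118, 103, and 311 CPM in the others (log2FC between classes 1.69, edgeR adjusted p = 0.0425, 0.114 with the block, and up to 0.302 without T-HCC662). This call was lost in 8 of 12 fits with 1 library left out, holding only without L984 and L992, T-HCC941, or TCi-HCA984. Alas1, which starts heme synthesis, was at 501 and 307 CPM against 65.5 to 330.2 CPM (log2FC 1.77, edgeR adjusted p = 0.0822, and 0.0207 with the block).

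Of 21 regulators, 20 were tested in all tumors, 0 rose, and 3 fell (Nr1h4, Cebpa, and Ghr), where 6.77% and 3.91% of all genes tested did. Nr1h4, the bile acid receptor, was at 124 to 231 CPM in livers and 34.6 to 132 CPM in tumors (log2FC -1.10, edgeR adjusted p = 0.0328), a call lost without L662, L663, L941, or L984 or without T-HCC663, T-HCC941, or T-HCA992 (0.0514 to 0.075). Its target Nr0b2 (26.2 to 89.6 CPM in livers, 21.4 to 68.5 CPM in tumors) and the receptors Ppara, Nr1i3 (CAR), Nr1i2 (PXR), and Ahr were not called in all tumors, nor was Hnf4a (495 to 873 CPM in livers, 476 to 779 CPM in tumors, edgeR adjusted p = 0.657). Ppara was at 141 to 376 CPM in livers and 155 to 355 CPM in tumors, and Nr1i3 at 125 to 356 CPM and 26.6 to 221 CPM. Between tumor classes 2 of 21 regulators were higher in the Ctnnb1-mutated tumors and 2 lower, where 6.76% and 5.72% of all genes tested were. Ahr was at 98.7 and 83 CPM against 15.4 to 53.8 CPM (log2FC 1.83, edgeR adjusted p = 0.00881, 0.00459 with the block, and 0.069 without T-HCC662) and Nr1i2 at 179.7 and 129 CPM against 42.5 to 90.4 CPM (log2FC 1.20, edgeR adjusted p = 0.0221, 0.173 with the block, 0.173 without T-HCC662, and 0.0654 without T-HCA992). Nr5a2, a receptor that regulates bile acid synthesis, was lower, at 23.1 and 26.5 CPM against 38.1 to 67.7 CPM (log2FC -1.11, edgeR adjusted p = 0.0308, 0.22 with the block, and 0.0704 to 0.174 without T-HCC662, T-HCC663, TCi-HCC981, or TCi-HCA984). Esr1, the estrogen receptor, was lower as well, at 1.85 and 10.8 CPM against 19.7 to 36.7 CPM (log2FC -2.09, edgeR adjusted p = 0.0431, and 0.0822 with the block), and its call was lost without L663, L941, or L992 or without any tumor but T-HCC663 (0.0521 to 0.178). Against livers, Esr1 was called lower in the Ctnnb1-mutated tumors, and Ahr, Nr1i2, and Nr5a2 were not called there. Ahr was called lower than in livers in the Egfr- or Hras-mutated tumors.

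The makeup of the tissue was described with marker lists by their summed CPM, which follows the most abundant genes of a list. The median log2FC of the genes of a list against livers can differ from the sum. For hepatocyte markers it was -0.49 in the Ctnnb1-mutated tumors, -0.04 in the Egfr- or Hras-mutated tumors, and -0.11 in those with neither mutation. For bile duct markers these medians were -1.78, -2.32, and 0.56. The 7 hepatocyte markers summed to 33119 to 57297 CPM in livers, 18759 and 36810.2 CPM in the Ctnnb1-mutated tumors, and 71259 to 98899 CPM in the 4 others. No hepatocyte marker was called in all tumors, and 2 (Alb and Serpina1c) were lower in the Ctnnb1-mutated tumors than in the others, though not with the block (edgeR adjusted p = 0.108 and 0.0571). The 5 bile duct markers summed to 50.9 to 134 CPM in livers, 17.8 and 35.5 CPM in the Ctnnb1-mutated tumors, and 60.8 to 1064 CPM in the others. The 7 stellate cell markers summed to 56.6 to 266 CPM, 31.9 and 83.7 CPM, and 159.7 to 398 CPM, and the 5 endothelial markers to 52.2 to 160.3 CPM, 50.6 and 86.5 CPM, and 127 to 226 CPM, in the same order. Macrophage markers (7) summed to 140.3 to 1677 CPM, 135 and 686 CPM, and 177 to 1222 CPM, T cell markers (5) to 0.775 to 9.07, 5.86 and 19.9, and 2.1 to 26.4 CPM, and B cell markers (3) to 0.485 to 32.3, 1.22 and 2.32, and 0.511 to 12.4 CPM. Of all these markers Pecam1 rose in all tumors (log2FC 1.59, edgeR adjusted p = 0.0179), and no marker was at 0 counts throughout a group. The part of tissue makeup in the P450 values was not tested.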

How the data were processed

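Raw read counts per gene were deposited for 12 libraries of poly(A) RNA, 6 non-tumoral livers and 6 tumors of the same mice. The authors made them with Subread, SAMtools, and featureCounts 1.6.4 on mm10, according to the submitters' processing notes and the study's methods. The strand setting, the treatment of reads that fit several genes, and the annotation release are not given in the sources used here, nor is the sequencing run of each sample, so the run correction of the authors was not applied. Further tumors of the study were not analysed here.

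Counts were tested with edgeR 4.0.16 in R 4.3.3 (TMM scaling, default expression filter, quasi-likelihood test, Benjamini-Hochberg adjustment over all genes, threshold 0.05). The models had tissue, tumor class, or genotype by tissue as their term, and classes of 2 tumors shared the spread of all libraries. Tumor classes follow the mutations that the study lists for each animal. The members, lists, and tests were chosen with earlier results of these data known. Genes named with values were the up to 10 called members of smallest p in each direction, the 5 most abundant per kilobase, every member of the functional lists, and members near the minimum, and further members were described after their values were seen. Alternatives were DESeq2 1.42.0, scaling by RLE, no expression filter, a fit of the tumors alone, each library left out, the mouse as a block, and the block without the mouse of T-HCC662.

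The pairing comes from the animal. Deviations from the group means correlated between the tumor and liver of the same mouse with r from 0.0416 to 0.547 (6 pairs, median 0.317). Between different mice r ranged from -0.547 to 0.242 (30 pairs, median -0.0661). The groups were genotype by tissue, and each p21+/TertCi group holds 2 mice, so centering makes their deviations mirror images. Their same-mouse r (0.547 for both) and the r between these mice (-0.547) are therefore the same value with opposite sign. In p21+/Tert mice the same-mouse r was 0.444 for 992, 0.19 for 662, 0.0457 for 663, and 0.0416 for 941. L662 had 0.207 with TCi-HCA984, above its own tumor, so these values cannot settle its pairing.

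The tests were also run on simulated counts with known changes. A count of 0 allows up to 3 counts, which is 0.107 to 0.228 CPM by library and covers counting error only. Transcripts were compared with blastn 2.17.0. Promoter sequences are from RefSeq on GRCm38.p6, and 51 of 67 members matched an entry.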

Additional observations from a re-analysis of the deposited data

Results flagged for a closer look

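Of 136 groups of 6 libraries (each of the 67 members and their sum, in livers and in tumors), 14 held a sample farther from the others than Dixon's 95% critical value on the log2(CPM + 1) scale, and chance alone marks about 5% of groups. L984 accounted for 8 of these. It was lowest for Cyp1a2 (50.3 CPM), Cyp2c44 (84.4 CPM), Cyp3a11 (297 CPM), Cyp3a25 (161 CPM), Cyp3a59 (13 CPM), Cyp4f14 (66.2 CPM), and Cyp27a1 (243 CPM), and highest for Cyp4a31 (14.9 CPM). L981 was lowest for Cyp39a1 (4.58 CPM). Among tumors, TCi-HCC981 was lowest for Cyp2c29 (2.16 CPM), T-HCC663 was highest for Cyp2g1 (5.39 CPM), T-HCA992 was highest for Cyp2b10 (0.394 CPM) and Cyp3a44 (5.52 CPM), and TCi-HCA984 was highest for Cyp26b1 (10.1 CPM).

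For 4 members the Ctnnb1-mutated tumors moved one way from their own livers and all 4 other tumors the opposite way, and the difference between the classes passed the edgeR test. The log2 fold change between classes was 3.18 for Cyp1a2 (adjusted p = 0.0333, or 0.218 in the fit blocked by mouse), 5.21 for Cyp4a10 (0.0309 and 0.0443), -1.54 for Cyp20a1 (0.0142 and 0.0991), and -2.11 for Cyp39a1 (0.0231 and 0.0797).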

How the results depend on the processing

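Of the 92 calls of members, DESeq2 kept 92, RLE scaling 91, no expression filter 90, and the mouse as a block 57. Fitting the 6 tumors alone kept 13 of 19 calls between tumor classes and gave 7 members higher, and the block without the mouse of T-HCC662 kept 12 of 35 and gave 1 higher and 1 lower between tumor classes. With the block, 4 were higher and 5 lower between tumor classes, 1 was lower in tumors with neither mutation, and 10 were lower in p21+/Tert tumors.

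DESeq2 called 4 members higher in all tumors, 19 lower in Ctnnb1-mutated tumors, 5 higher and 19 lower in tumors with neither mutation, 14 lower in Ctnnb1-mutated than in other tumors, 2 lower in Egfr- or Hras-mutated tumors than in those with neither, 18 lower in p21+/Tert tumors, 3 higher and 6 lower in p21+/TertCi tumors, and 1 lower in the interaction.

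Leaving out 1 library at a time, the numbers higher and lower ranged from 2 to 4 and 9 to 16 in all tumors, 0 to 3 and 4 to 10 in Ctnnb1-mutated tumors, 2 to 6 and 6 to 22 in Egfr- or Hras-mutated tumors, 1 to 4 and 0 to 12 in tumors with neither mutation, 3 to 13 and 2 to 10 between tumor classes, and 0 to 3 and 1 to 8 in p21+/Tert tumors.

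Against the mean of the 6 livers in place of the own liver, the median log2 ratio of the members was -0.69 in T-HCC663, -1.13 in T-HCC941, -1.48 in TCi-HCC981, and -0.50 in TCi-HCA984. No result changed direction under the alternatives run, and the causes of these changes were not tested. With 2 tumors in a class, calls rest on few animals, and members under about 1 CPM rest on few reads.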
